A study of Homo sapiens with 12 samples.

Results

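The genes described are 36 genes of glycolysis and of the response to low oxygen, listed by name and taken from the 60664 genes of the count table. They were 17 glycolytic enzymes, 4 sugar and lactate transporters, 4 regulators of glycolytic flux, 10 targets of the hypoxia-inducible factor (HIF) outside the glycolytic route, and HIF1A itself. All 36 were found under a single Ensembl identifier, and all 36 passed the filter on low counts. The enzymes were kept apart from the HIF targets throughout, although several enzyme genes are also known HIF targets.

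The libraries were RNA-seq of SK-N-SH, an established human neuroblastoma line that holds both neuroblast-like and flat, substrate-adherent cells. The cells had been placed on substrates with a stiffness of 1, 8 or 30 kPa, with 4 libraries at each, and the study asked how stiffness changes gene expression in neuroblastoma cells. No agent, gene change or time point is named in the labels, and all libraries share the line. The substrate material, the medium, the oxygen level and the time in culture are not given in the sources used here. The labels do not state separate cultures, so p-values measure only the spread between these libraries, which may be technical.

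Glycolysis turns glucose into pyruvate. Hexokinase traps the sugar in the cell, phosphofructokinase commits it to the route, and lactate dehydrogenase regenerates the cofactor by turning pyruvate into lactate. HIF is a transcription factor whose alpha subunit is destroyed when oxygen is plentiful, after prolyl hydroxylases of the EGLN family mark it for the VHL ubiquitin ligase. When oxygen is low, HIF switches on glucose transporters, most glycolytic enzymes, angiogenic factors such as VEGFA, mitophagy genes such as BNIP3, and its own EGLN brakes. In neuroblastoma, as in many tumours, glycolysis also runs with oxygen present.

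HIF binds short DNA sites with the core ACGTG or GCGTG, so the upstream sequence of the genes that the results turn on is shown first. Promoter sequences came from RefSeq on GRCh38.p14 and covered 31 of the 36 genes. The 250 bases before each start were searched on both strands, so CACGT and CACGC were also counted, and the palindrome CACGTG, which is also the E-box bound by other factors, counted for both strands. The core was found in 20 of the 31 promoters, or 64.5%. It was found in 43.1% of all 27305 RefSeq promoters and in 56.1% of the 12168 promoters of genes tested here. By role, 10 of 17 enzyme promoters and 6 of 7 HIF target promoters held it. The sites of 7 genes that passed the test at 8 against 1 kPa follow, with CA9 and ANKRD37 as HIF targets that did not pass, and the capitals mark the core. Where a site lies in an annotated exon only up to 30 bases are given.
PGK1, chrX:78104037-78104094, plus strand: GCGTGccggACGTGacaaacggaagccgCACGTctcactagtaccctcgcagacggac
GAPDH, chr12:6535159-6535213, plus strand: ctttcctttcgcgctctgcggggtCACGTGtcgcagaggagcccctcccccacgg
LDHA, chr11:18394475-18394504, plus strand: aCACGTGggttcccgCACGTccgccggccc
ALDOC, chr17:28576909-28576935, minus strand: ccccggaggagtCACGTagctctgcga
GPI, chr19:34364815-34364844, plus strand: agaacactgcctgtaACGTGgaaggtgttc
BNIP3, chr10:131982013-131982042, minus strand: cccCACGCccctgcgCACGCgcaggcccca
KDM3A, chr2:86441330-86441359, plus strand: ggtccgggaggctgtGCGTGtcttgtgaga
CA9, chr9:35673895-35673924, plus strand: ctctcgtttccaatgCACGTacagcccgta
ANKRD37, chr4:185396685-185396712, plus strand: ccagtgtttgtgtACGTGcggccgtggc
BNIP3 held 6 matches in its 250 bases, LDHA and ALDOC held 5 each, and PGK1 held 3. The nearest match to the start lay 28 bases upstream in ALDOC, 73 in LDHA, 80 in GAPDH, 104 in BNIP3 and 183 in PGK1. PGAM1 and TPI1, which also passed the test, had no match in this window. A match is a string of letters and not a measured binding site.

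Each 1 kPa library held 1.43e+07 to 1.59e+07 counts, each 8 kPa library 1.50e+07 to 2.53e+07, and each 30 kPa library 2.39e+07 to 2.78e+07. Depth therefore moved with stiffness, and 8 kPa replicate 1 was the only library at 8 or 30 kPa under 2e+07 counts. Mitochondrial genes held 11.3% to 14.8% of the counts at 1 kPa, 10.2% to 11.5% at 8 kPa and 11.7% to 13.2% at 30 kPa. Of 7 sympathetic neuroblastoma markers 6 were measured, and their summed level was 407 to 621 CPM at 1 kPa, 510 to 729 CPM at 8 kPa and 553 to 635 CPM at 30 kPa, while tyrosine hydroxylase (TH), a defining enzyme of noradrenaline synthesis, was under 0.5 CPM everywhere. The 5 collagen and fibroblast markers summed to 1125 to 1598 CPM over all libraries, and the 5 immune markers to at most 1.05 CPM, with CD68 and CD3E under 0.5 CPM. The 5 epithelial markers summed to 46.0 to 72.2 CPM over all libraries, mostly from EPCAM, KRT8 and KRT18, while CDH1 and KRT5 were under 0.5 CPM. The 4 endothelial markers summed to 3.45 to 9.29 CPM at 1 kPa, 1.76 to 7.41 CPM at 8 kPa and 1.54 to 2.19 CPM at 30 kPa, mostly from PECAM1, with CDH5, VWF and KDR under 0.5 CPM.

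The unit of level is CPM, the count after scaling to a common library size, and different genes are compared per kilobase of exon. The enzymes of the later steps of glycolysis were the most abundant of the 36 genes. GAPDH, which makes the first high-energy intermediate and the cofactor NADH, averaged 789 CPM per kb over the 3 stiffnesses. The pyruvate kinase PKM followed at 194, the enolase ENO1 at 160, the triose isomerase TPI1 at 126 and LDHA at 112 CPM per kb. HIF1A, the oxygen-labile subunit of HIF, ranked 6 of 36 at 86.6 CPM per kb, above PGK1 at 60.8 and PGAM1 at 49.4 CPM per kb.

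**Figure D1:**
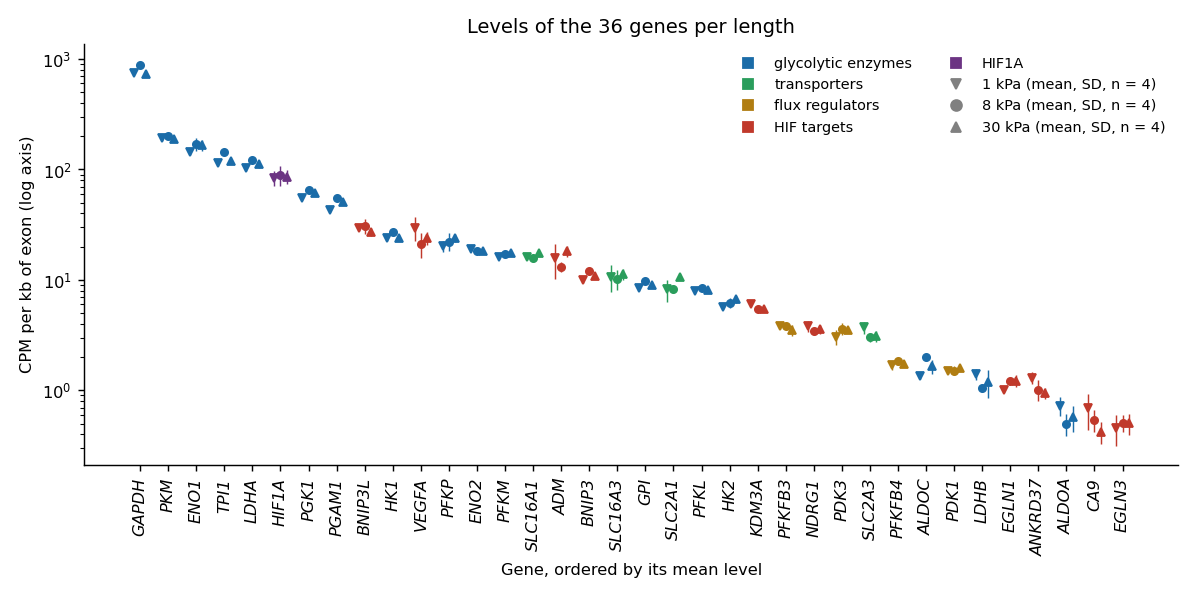
The plot of levels per length shows each gene on the x axis, ordered by its mean level, and CPM per kb of exon on a log y axis, with marker shape for stiffness, colour for role and bars for the SD over 4 libraries. GAPDH stands highest at 789 CPM per kb and EGLN3 lowest at 0.489, and for most genes the 3 stiffnesses lie close together on this scale.

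At the low end stood some of the HIF targets, beside PFKFB4, ALDOC, PDK1, LDHB and ALDOA. Other HIF targets stood higher, with BNIP3L at rank 9 of 36, VEGFA at 11, ADM at 16 and BNIP3 at 17. The prolyl hydroxylase EGLN1 averaged 1.15 CPM per kb and EGLN3 0.489, the ankyrin repeat gene ANKRD37 1.09, and the carbonic anhydrase CA9, widely used as a marker of hypoxic tumour cells, 0.550 CPM per kb. CA9 rested on 10 to 27 counts per library, so only large differences in it could be seen at this depth. The aldolase ALDOA and the lactate dehydrogenase LDHB, which are usually abundant, were listed at only 0.599 and 1.22 CPM per kb. In GENCODE v29, another gene on the same strand covers 42.3% of the exon bases of ALDOA and 33.4% of those of LDHB, and an antisense gene covers 38.5% of CA9 and 35.2% of ANKRD37. The counting rule and strand setting are not given in the sources used here, so the levels of these 4 genes are uncertain. An antisense gene also covers 14.2% of the exon bases of GAPDH. Pseudogenes named for 16 of the 36 genes, 62 of them for GAPDH, 39 for BNIP3 and 13 for PGAM1, could also take or lend reads.

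Between 8 and 1 kPa, 8 of the 36 genes rose, 1 fell and 27 did not pass (edgeR quasi-likelihood F-test with Benjamini-Hochberg adjustment over 17960 genes, threshold 0.05). Over all tested genes 8.17% rose and 5.6% fell. The genes that rose were the enzymes PGAM1, PGK1, TPI1, ALDOC, LDHA, GPI and GAPDH and the mitophagy gene BNIP3, and the gene that fell was the histone demethylase KDM3A. Each of these changes was under 1.5-fold. In bulk RNA, fewer cells of a type and less RNA per cell cannot be told apart. The libraries did not overlap for 10 of the 36 genes on the higher side and 2 on the lower side, against 9.41% and 7.36% of all tested genes.

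Of the 17 glycolytic enzymes 7 rose at 8 kPa and 0 fell, with a median log2 fold change of 0.18, against -0.01 over all tested genes. The value was positive for 14 of the 17, against 47.6% of all tested genes, and the 3 exceptions were ALDOA, LDHB and the neuronal enolase ENO2. PGAM1, the phosphoglycerate mutase (ENSG00000171314, chromosome 10, 97426160 to 97433441), had 105, 108, 114 and 115 CPM at 1 kPa and 145, 136, 142 and 139.5 CPM at 8 kPa. Every 8 kPa library stood above every 1 kPa library, by at least the gap from 115 to 136 CPM. Its log2 fold change was 0.35 ± 0.0514 (SE, adjusted p = 0.00521), a 1.27-fold rise, and the call held in all 12 fits that each left out 1 library, with a highest adjusted p of 0.0277.

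PGK1, the phosphoglycerate kinase that makes the first ATP of the route (ENSG00000102144, chromosome X, 77910739 to 78129296), had 301, 305, 313 and 307 CPM at 1 kPa and 359, 357, 375 and 351 CPM at 8 kPa. The spread within each group was small, with an SD of 4.86 and 10.5 CPM. PGK1 rose by 0.23 ± 0.0489 on the log2 scale (adjusted p = 0.0118). TPI1, which interconverts the triose sugars (ENSG00000111669, chromosome 12, 6867119 to 6870948), had 314, 280.2, 312 and 338 CPM at 1 kPa and 408, 373, 415 and 359.7 CPM at 8 kPa. It rose by 0.32 ± 0.0682 (adjusted p = 0.0122). The calls of PGK1 and TPI1 were lost without 8 kPa replicate 3, at adjusted p = 0.0530 and 0.0533.

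The largest fold change among the genes that rose was that of ALDOC, the brain form of aldolase, which stood at a low level. ALDOC (ENSG00000109107, chromosome 17, 28573115 to 28577264) had 3.63, 4.09, 4.16 and 3.99 CPM at 1 kPa and 6.43, 5.88, 5.67 and 5.40 CPM at 8 kPa. These values rest on 52 to 64 counts at 1 kPa and 98 to 146 counts at 8 kPa, and an antisense gene covers 10.1% of its exon bases. Its log2 fold change was 0.55 ± 0.124 (adjusted p = 0.0148), with the call lost at adjusted p = 0.0501 without 8 kPa replicate 1.

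LDHA, GPI and GAPDH passed by a narrower margin. LDHA, the lactate dehydrogenase chain that favours lactate (chromosome 11, 18394388 to 18408425), had 603, 626, 689.7 and 623 CPM at 1 kPa and 715, 734, 781 and 786 CPM at 8 kPa. The gap between the groups was smaller than the spread within either. LDHA rose by 0.25 ± 0.0722 on the log2 scale (adjusted p = 0.0373). GPI, which turns glucose phosphate into fructose phosphate (chromosome 19, 34359480 to 34402413), had 92.4, 82.2, 90.6 and 98.8 CPM at 1 kPa and 112, 102, 107 and 101 CPM at 8 kPa. Its libraries did not overlap, but its highest 1 kPa library lay just under its lowest 8 kPa library. GPI rose by 0.21 ± 0.0636 (adjusted p = 0.0417). GAPDH (chromosome 12, 6533927 to 6538374) had 2237, 2127, 2299.6 and 2330.4 CPM at 1 kPa and 2714, 2562, 2719.8 and 2501 CPM at 8 kPa. It rose by 0.22 ± 0.0696 (adjusted p = 0.0471). GAPDH is often used as a loading control.

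These 3 calls depended on single libraries. The LDHA call was lost without any 1 of 1 kPa replicates 1, 2 and 4 or of the 4 replicates at 8 kPa (adjusted p up to 0.116, without 8 kPa replicate 3). The GPI call did not survive the removal of 1 kPa replicate 1, 2 or 3, of 8 kPa replicate 1, 2 or 3, or of 30 kPa replicate 2 or 3 (up to 0.135, without 8 kPa replicate 1). The GAPDH call was kept in 2 of 12 fits, those without 1 kPa replicate 4 and without 8 kPa replicate 4, and reached 0.141 without 8 kPa replicate 3. In each of these fits the log2 fold change of the gene stayed positive. All these adjusted p are from edgeR's test.

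**Figure D2:**
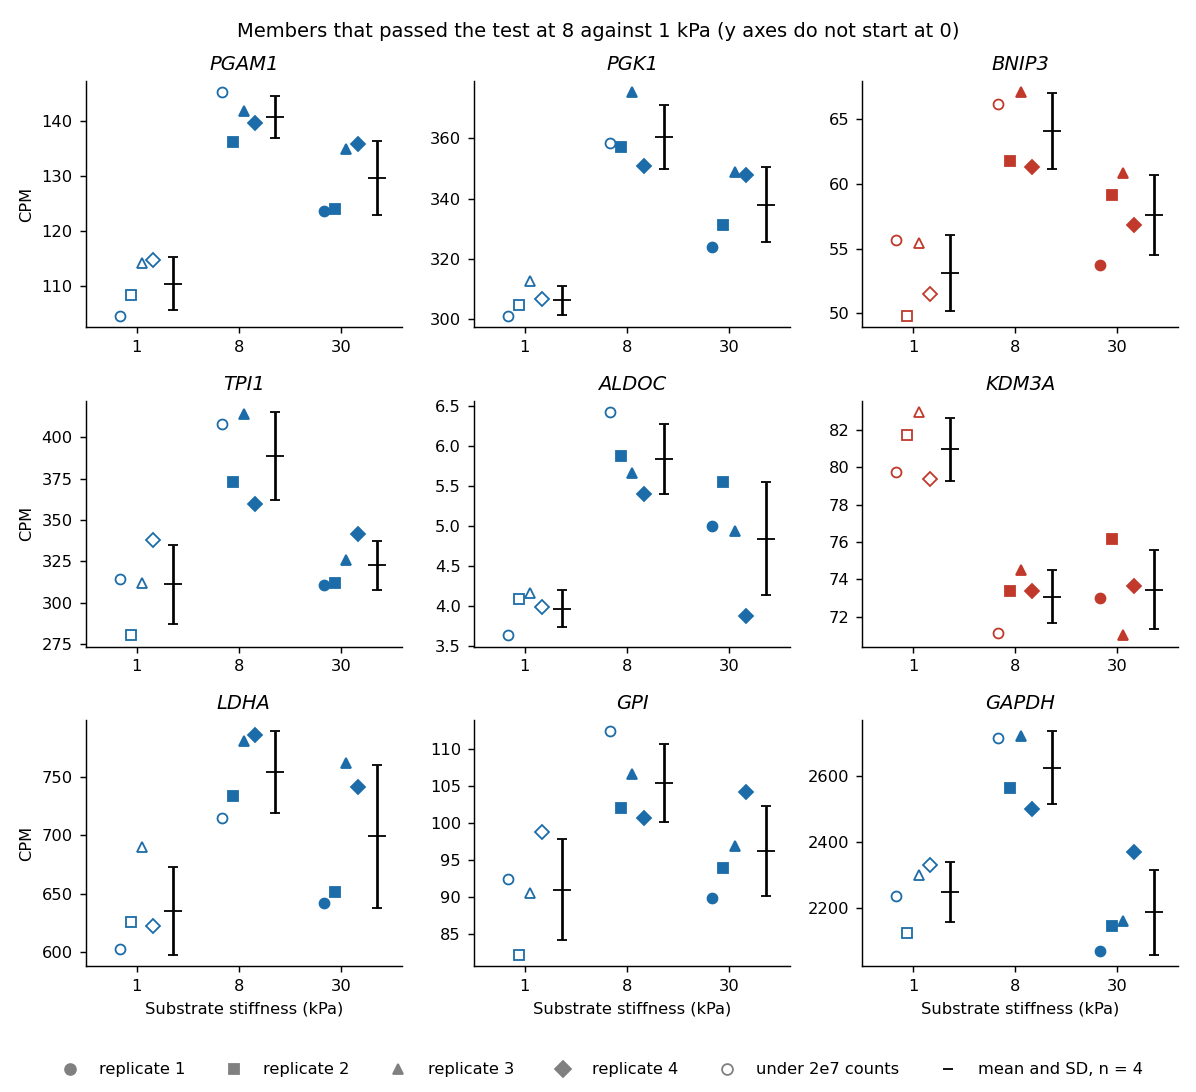
The plot of the 9 genes that passed at 8 against 1 kPa gives CPM on the y axis, which does not start at 0, and substrate stiffness in kPa on the x axis, with a marker shape for each replicate number, open markers for libraries under 2e7 counts, and bars for mean and SD over 4 libraries. PGAM1 stands at 105 to 115 CPM at 1 kPa and at 136 to 145 CPM at 8 kPa, and KDM3A is the single gene of the 9 that is lower at 8 kPa.

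Among the enzymes that did not pass, HK1, the widely expressed hexokinase, was nearest to the threshold. HK1 had 144, 142, 151 and 164 CPM at 1 kPa and 177, 165, 174 and 166 CPM at 8 kPa. The groups did not overlap, and its log2 fold change was 0.18 ± 0.0586 (edgeR, adjusted p = 0.0517; DESeq2, adjusted p = 0.0231; limma-voom, adjusted p = 0.0468). HK2, the inducible hexokinase of many tumours, had a value of 0.13 ± 0.0754 with overlapping libraries. The phosphofructokinases PFKP, PFKL and PFKM, which catalyse the committed step, had log2 fold changes of 0.14, 0.08 and 0.11, and none passed with edgeR, while DESeq2 called PFKM at adjusted p = 0.0492. ENO1 had 0.22 ± 0.101, PKM 0.06 ± 0.0684 and ENO2 -0.06 ± 0.0473. ALDOA and LDHB had the lowest values, -0.52 ± 0.224 and -0.41 ± 0.181, on 26 to 74 and 51 to 125 counts per library. LDHB was below every 1 kPa library in each 8 kPa library and did not pass (adjusted p = 0.138).

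None of the 4 transporters passed at 8 against 1 kPa by edgeR, DESeq2 or limma-voom, and 1 of them had an unadjusted p under 0.05 by edgeR, as did 31.2% of all tested genes. That gene was SLC2A3, the high-affinity neuronal glucose transporter GLUT3. It had 19.7, 23.2, 26.7 and 21.8 CPM at 1 kPa and 17.5, 18.5, 21.3 and 17.6 CPM at 8 kPa. Its groups overlapped, at a log2 fold change of -0.29 ± 0.104 (edgeR, adjusted p = 0.0790). SLC2A1, the glucose transporter GLUT1, had a value of 0.02 ± 0.121 in this comparison. The lactate carriers SLC16A1 (MCT1) and SLC16A3 (MCT4) had -0.04 ± 0.0615 and -0.06 ± 0.168.

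The 4 flux regulators also had 0 calls in every comparison by edgeR, DESeq2 and limma-voom, and 0 had an unadjusted p under 0.05 by edgeR, against 31.2%, 17.9% and 18.9% of all tested genes at 8 against 1, 30 against 8 and 30 against 1 kPa. PDK1 and PDK3, kinases that inhibit pyruvate dehydrogenase, had log2 fold changes of 0.01 ± 0.0802 and 0.23 ± 0.110 at 8 against 1 kPa. PFKFB3 and PFKFB4, which set the level of the main activator of phosphofructokinase, had -0.0039 ± 0.0825 and 0.13 ± 0.0895. PDK3 had the widest spread at 1 kPa, from 12.5 to 17.5 CPM, and PFKFB4 stood at 9.04 to 12.3 CPM over all 12 libraries.

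The 10 HIF targets outside glycolysis did not move as one, and their counts were near the shares over all tested genes. At 8 against 1 kPa 1 rose (BNIP3), 1 fell (KDM3A) and 8 did not pass. The median log2 fold change was -0.15, with 4 of 10 positive. Of all tested genes 8.17% rose, 5.6% fell and 47.6% had a positive value. BNIP3, a mitochondrial outer membrane protein that marks mitochondria for autophagy (ENSG00000176171, chromosome 10, 131966455 to 131982013), had 55.7, 49.8, 55.4 and 51.5 CPM at 1 kPa and 66.1, 61.8, 67.0 and 61.3 CPM at 8 kPa. Its groups were separate, and it rose by 0.27 ± 0.0571 (edgeR, adjusted p = 0.0122), with the call lost at 0.0532 without 8 kPa replicate 3. Its relative BNIP3L (NIX), which has the same role, had 132, 121, 121 and 137 CPM at 1 kPa and 142, 144, 143 and 103 CPM at 8 kPa. Replicate 4 at 8 kPa was the lowest of the 12 for BNIP3L, and the groups overlapped at 0.06 ± 0.0973.

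KDM3A, a demethylase of histone H3 whose own gene is induced by HIF (ENSG00000115548, chromosome 2, 86440647 to 86492716), had 79.7, 81.8, 83.0 and 79.4 CPM at 1 kPa and 71.1, 73.4, 74.5 and 73.4 CPM at 8 kPa. Replicates were close in both groups, and KDM3A fell by 0.15 on the log2 scale (SE 0.0419, edgeR, adjusted p = 0.0341). The call was lost without any 1 of replicates 1, 2 and 3 at 1 kPa or at 8 kPa, with adjusted p up to 0.0936 without 8 kPa replicate 1. It was also lost when no filter on low counts was used, at adjusted p = 0.282.

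VEGFA, the main angiogenic factor under HIF, had 391, 583, 388 and 352 CPM at 1 kPa and 268, 416, 291 and 244 CPM at 8 kPa. Replicate 2 was the highest library in each group, and the second 8 kPa library lay above 3 of the 1 kPa libraries. The log2 fold change was -0.49 ± 0.173 and did not pass with edgeR (adjusted p = 0.0709), while DESeq2 called it at adjusted p = 0.0335 and edgeR without a filter at 0.00851. ADM, the vasodilator peptide adrenomedullin, had 38.8, 61.0, 46.3 and 25.1 CPM at 1 kPa and 33.3, 40.6, 31.9 and 37.5 CPM at 8 kPa, which overlapped. NDRG1, a stress-induced gene, had -0.16 ± 0.0909, CA9 -0.34 ± 0.273 and ANKRD37 -0.34 ± 0.166. EGLN1, the main oxygen sensor for HIF, went the other way. It had 7.55, 7.54, 7.02 and 7.09 CPM at 1 kPa and 8.53, 9.14, 8.01 and 9.62 CPM at 8 kPa, with no overlap, at 0.28 ± 0.103 (adjusted p = 0.0865). EGLN3 had 0.15 ± 0.218.

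HIF1A itself had 431, 525, 404 and 371 CPM at 1 kPa and 470.4, 583, 448 and 349 CPM at 8 kPa. The groups overlapped and the log2 fold change was 0.10 ± 0.144 (edgeR, adjusted p = 0.691). HIF activity is set mainly by the stability of the protein, which RNA counts do not measure. In 5 of the 36 genes (HIF1A, VEGFA, ADM, SLC16A3 and ENO2) the second replicate was the highest library at each stiffness, and in PGK1 it was the third. The share of all tested genes with such a pattern was not counted, so nothing particular to these genes is read from it.

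**Figure D3:**
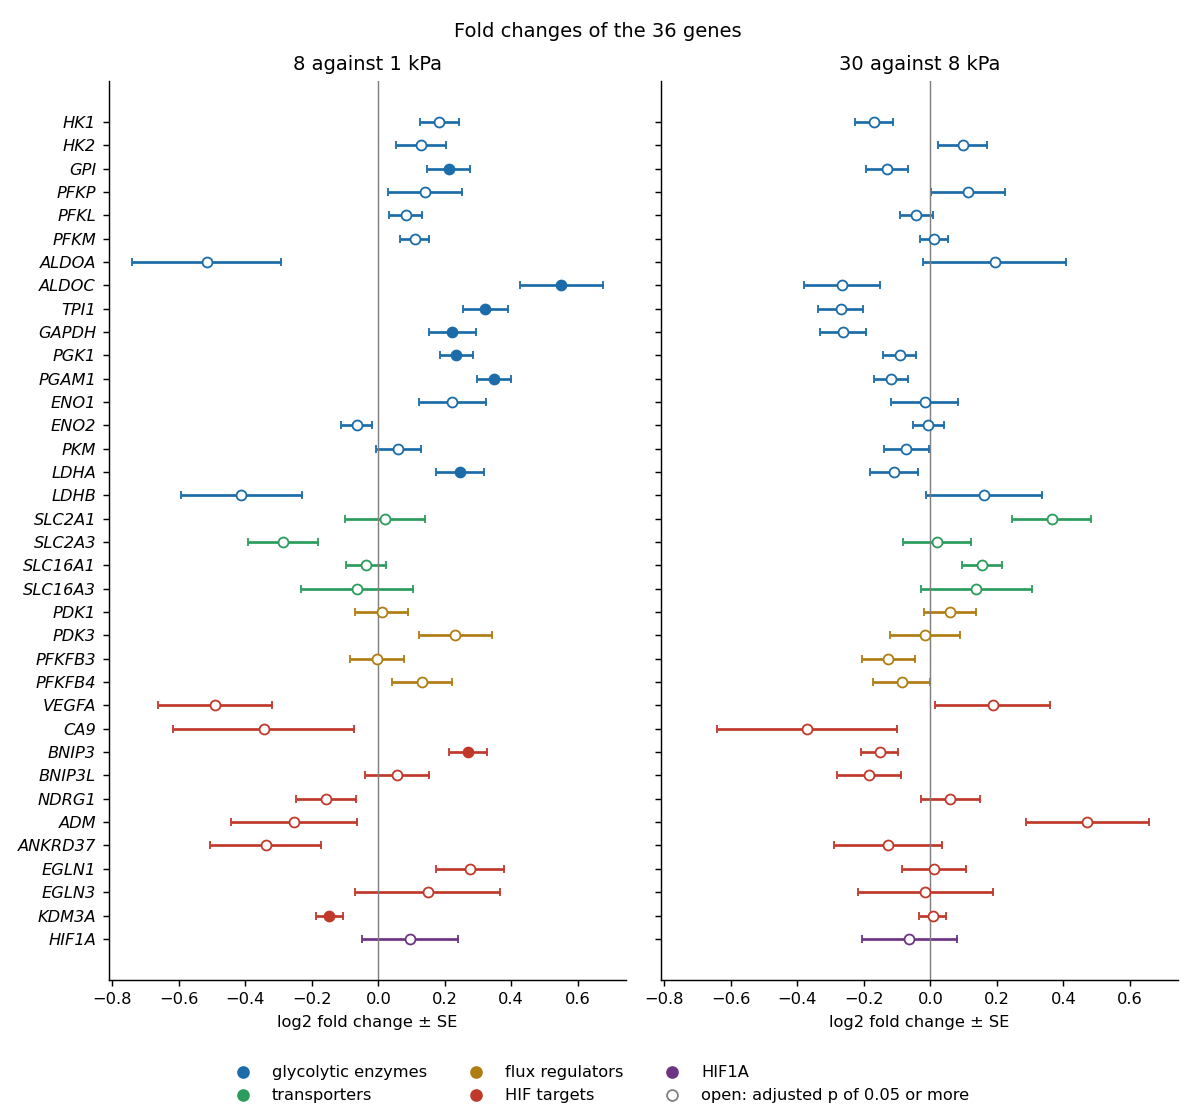
The plot of fold changes gives the log2 fold change with its SE on the x axis for each of the 36 genes on the y axis, at 8 against 1 kPa on the left and 30 against 8 kPa on the right, coloured by role, with filled points for an adjusted p under 0.05. The 9 filled points are all on the left, and most enzymes lie to the right of 0 there and at or to the left of 0 in the other comparison. Both comparisons share the 8 kPa libraries, so opposite signs are partly built in.

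Depth and other measures moved with these differences. 8 kPa replicate 1, which was sequenced to the depth of the 1 kPa libraries, lay above all 4 of them for 13 of the 36 genes, below all for 9 and within their range for 14, against 29.9%, 30.6% and 39.5% of all tested genes. All the genes that rose, and HK1 and PFKM, were among those above, and KDM3A was among those below. That library was itself part of the test that called them. HK2, PFKP, PFKL, ENO1 and PKM, which did not pass, were among those within the range. With a term for depth (over or under 2e+07 counts) in the fit, edgeR called 0 genes and 0 of the 36 at 8 against 1 kPa (12 of the 36 and 23.9% of all tested genes at an unadjusted p under 0.05), and the median of the enzymes was 0.13. All 10 genes of a mitotic list rose at 8 against 1 kPa, and their summed level was 612 to 885 CPM at 1 kPa, 959 to 1157 CPM at 8 kPa and 1019 to 1208 CPM at 30 kPa. The neuroblastoma marker PHOX2A also rose, by 0.49 ± 0.129 (adjusted p = 0.0264). The part of depth, proliferation and cell state in the glycolytic differences was not tested.

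Between 30 and 8 kPa edgeR called 0 of the 36 genes and 0% of all tested genes. At an unadjusted p under 0.05 there were 9 of the 36 and 3218 of 17960 (17.9%), DESeq2 called 2 and 414, and limma-voom called 0 and 0. The libraries did not overlap for 2 of the 36 on the higher side, SLC2A1 and ADM, and for 6 on the lower side, HK1, TPI1, GAPDH, PGK1, PGAM1 and BNIP3. Over all tested genes these shares were 4.79% and 6.5%. The enzymes had a median log2 fold change of -0.07, against 0.0037 over all tested genes. The value was positive for 5 of 17, against 50.9% of all tested genes.

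TPI1 had 311, 312, 326 and 342 CPM at 30 kPa, all below the 359.7 to 415 CPM at 8 kPa. Its log2 fold change was -0.27 ± 0.0680 (edgeR, adjusted p = 0.133; DESeq2, adjusted p = 0.0120). GAPDH had 2070.5, 2147, 2162 and 2370.5 CPM at 30 kPa, all below the 8 kPa libraries and overlapping those at 1 kPa. Its value was -0.26 ± 0.0696 (edgeR, adjusted p = 0.134; DESeq2, adjusted p = 0.000907). The fit without 8 kPa replicate 4 called TPI1, GAPDH and BNIP3L, at adjusted p = 0.0311, 0.0434 and 0.0316.

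SLC2A1 had its highest mean at 30 kPa. It had 35.6, 50.4, 39.7 and 29.7 CPM at 1 kPa, 35.8, 41.9, 36.7 and 42.6 CPM at 8 kPa and 50.4, 53.6, 51.4 and 47.0 CPM at 30 kPa. All 30 kPa libraries were above all 8 kPa libraries, but the second 1 kPa library reached the level of 30 kPa. At 30 against 8 kPa the value was 0.36 ± 0.118 (edgeR, adjusted p = 0.166; 0.0398 without a filter), and at 30 against 1 kPa 0.38 ± 0.120 (edgeR, adjusted p = 0.101; DESeq2, 0.0468; 0.0101 without a filter). ADM had 53.5, 53.6, 42.0 and 49.9 CPM at 30 kPa, above every 8 kPa library, at 0.47 ± 0.185 (adjusted p = 0.213). SLC16A1 had 0.16 ± 0.0608 and SLC16A3 0.14 ± 0.167, with overlapping libraries.

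**Figure D4:**
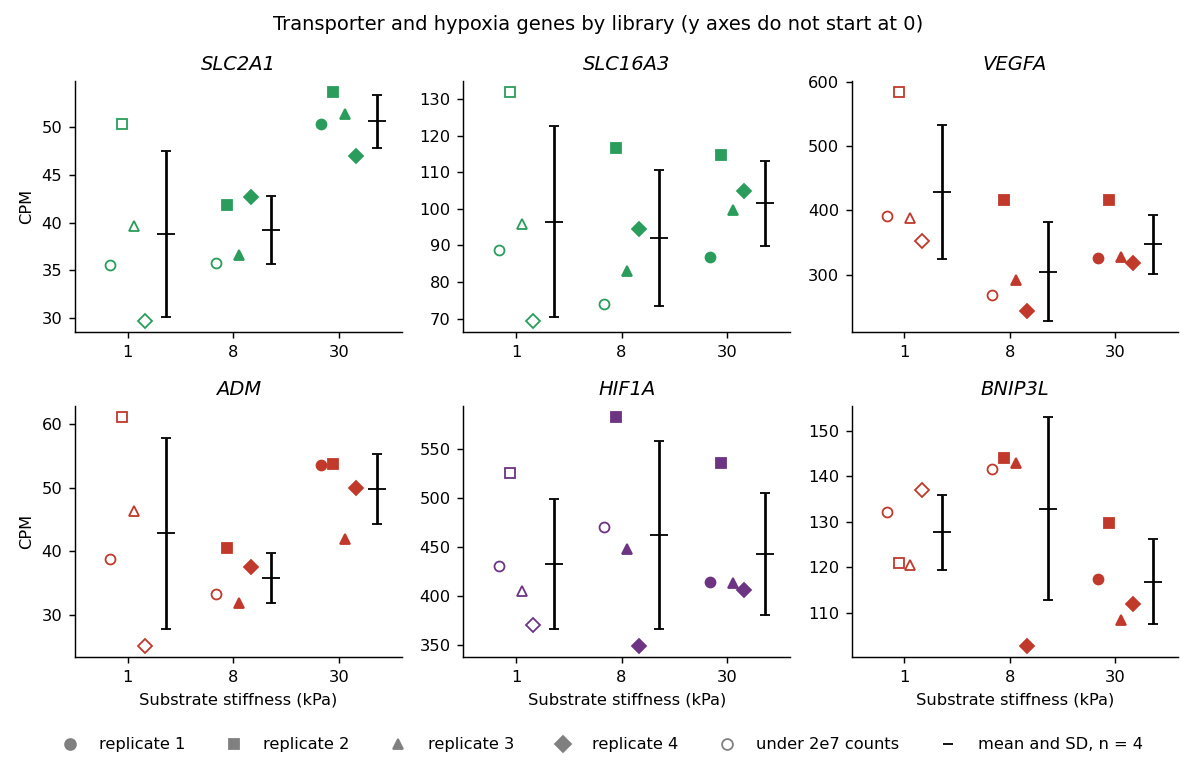
The plot of transporter and hypoxia genes gives CPM on the y axis, which does not start at 0, and stiffness in kPa on the x axis, with a marker shape for each replicate number, open markers for libraries under 2e7 counts, and bars for mean and SD over 4 libraries. Replicate 2 is the highest library at every stiffness for SLC16A3, VEGFA, ADM and HIF1A, and the 30 kPa libraries of SLC2A1 sit between 47.0 and 53.6 CPM.

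Between 30 and 1 kPa, 1 of the 36 genes rose, 0 fell and 35 did not pass, against 1.1% of all tested genes higher and 1.33% lower. The libraries did not overlap for 5 on the higher side and 2 on the lower side, against 5.33% and 6.06%. The gene that rose was PGAM1, with 124, 124, 135 and 136 CPM at 30 kPa, all above its 1 kPa libraries. The log2 fold change was 0.23 ± 0.0514 (edgeR, adjusted p = 0.0344). This call did not survive the removal of 1 kPa replicate 1, 2 or 3, of 8 kPa replicate 3, or of 30 kPa replicate 3 or 4, with adjusted p up to 0.127 without 30 kPa replicate 3. The other genes with separate higher libraries were HK2, PFKM, PGK1 and EGLN1, at 0.23 ± 0.0749, 0.12 ± 0.0436, 0.14 ± 0.0489 and 0.29 ± 0.102. DESeq2 called PGK1 at adjusted p = 0.0122 where edgeR gave 0.135. Those with separate lower libraries were KDM3A at -0.14 ± 0.0418 and ANKRD37 at -0.47 ± 0.165. KDM3A had 73.0, 76.2, 71.0 and 73.6 CPM at 30 kPa, the level it had at 8 kPa, and DESeq2 called it at adjusted p = 0.0346 where edgeR gave 0.0886. CA9 had the lowest fold change at -0.72 ± 0.279 (adjusted p = 0.180), on 12 to 21 counts at 30 kPa.

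A last test asked whether 8 kPa stood away, in log2 units, from the average of the softer and the stiffer substrate. It shares all libraries with the pairwise comparisons. By edgeR 7 of the 36 genes were higher at 8 kPa and 0 lower, against 4.42% and 2.66% of all tested genes. They were the enzymes PGAM1, TPI1, GAPDH, ALDOC, PGK1 and HK1 and the HIF target BNIP3. The departures were 0.23 ± 0.0439 for PGAM1 (adjusted p = 0.0231), 0.30 ± 0.0583 for TPI1 (0.0245) and 0.24 ± 0.0597 for GAPDH (0.0345). Those of ALDOC, PGK1 and HK1 were 0.41 ± 0.102 (0.0351), 0.16 ± 0.0420 (0.0374) and 0.18 ± 0.0502 (0.0494), and that of BNIP3 was 0.21 ± 0.0486 (0.0304). In the fit with a depth term 5 of the 36 genes and 1268 of all tested genes were called, against 7 and 1272 without it. The count of the 36 fell to 0 without 8 kPa replicate 1 or 3 or 30 kPa replicate 1 or 2, where the count over all tested genes fell to 0, 0, 0 and 1. It fell to 2 (176 over all) without 8 kPa replicate 2, and to 3 without 1 kPa replicate 1 or 3 or 30 kPa replicate 3 (543, 458 and 262 over all).

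The 30 kPa values of these genes sat between the other groups or near 1 kPa. These genes were chosen as higher at 8 kPa, so 30 kPa values under 8 kPa are partly built in. PGK1 had 324, 331, 349 and 348 CPM at 30 kPa and BNIP3 53.7, 59.1, 60.8 and 56.8 CPM, so BNIP3 overlapped 1 kPa and PGK1 did not. ALDOC had 5.01, 5.55, 4.94 and 3.88 CPM, with replicate 4 inside the 1 kPa range. HK1 had 139.6, 158, 151 and 158 CPM, within or below its range at 1 kPa. LDHA did not pass for 8 kPa against the mean of 1 and 30 kPa (edgeR, adjusted p = 0.0881). It had 642, 651, 762 and 741 CPM at 30 kPa, with 2 libraries at the level of 1 kPa and 2 near 8 kPa.

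Where a step has several forms, their shares per kb were compared as a description. HK2 made up 19.3% ± 1.48 (SD, n = 4) of the hexokinase pair HK1 and HK2 at 1 kPa, 18.7% ± 1.92 at 8 kPa and 21.7% ± 1.34 at 30 kPa. PFKP made up 45.7% ± 2.21, 46.1% ± 4.16 and 48.4% ± 1.87 of the phosphofructokinases. The libraries of the 3 stiffnesses overlapped in both shares. SLC2A3 made up 31.5% ± 4.46 of the 2 glucose transporters at 1 kPa, 26.9% ± 2.95 at 8 kPa and 22.4% ± 2.74 at 30 kPa, and of these the 1 and 30 kPa libraries did not overlap. ENO2 made up 11.6% ± 0.432 of the enolases at 1 kPa, 9.86% ± 1.43 at 8 kPa and 9.90% ± 1.28 at 30 kPa, and SLC16A3 39.4%, 39.2% and 39.1% of the lactate carriers. The shares of ALDOC and LDHB are not read, given the uncertain counts of ALDOA and LDHB.

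The genes whose levels ran most like those of PGK1 over the 12 libraries were AP2S1, CENPX, PGAM1, GUK1 and PSMB5, by Pearson's r of log2 CPM, with r from 0.958 to 0.974. This is a description over libraries that share stiffness and depth, and only PGAM1 of the 5 is a glycolytic gene.

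Routes that branch from glycolysis were read from lists of other genes. Of 25 other glycolysis genes 16 were measured, and at 8 against 1 kPa 2 rose and 1 fell. Over all tested genes 8.17% rose and 5.6% fell in this comparison, and nothing particular to these lists is read from their counts. PGAM5, a mitochondrial phosphatase named for its similarity to the mutases, rose by 0.31 ± 0.0750 and PGM1, which links glycogen to glycolysis, by 0.17 ± 0.0476 (edgeR, adjusted p = 0.0196 and 0.0352). PFKFB2, a heart and kidney relative of PFKFB3, fell by 0.27 (SE 0.0519, adjusted p = 0.00968). Of 10 genes of pyruvate entry into the mitochondrion 3 rose and 0 fell: the carrier subunit MPC2 by 0.32 ± 0.0902 and the pyruvate dehydrogenase subunits PDHB and DLAT by 0.16 ± 0.0452 and 0.19 ± 0.0587. Of 16 genes of the citric acid cycle 3 rose and 0 fell, namely SDHB, MDH2 and SUCLA2, at 0.32 ± 0.0644, 0.21 ± 0.0534 and 0.17 ± 0.0531. Of 7 genes of the pentose phosphate route, which makes NADPH and ribose, 2 rose and 0 fell, TALDO1 by 0.25 ± 0.0597 and PGD by 0.16 ± 0.0498. The list medians were 0.02, 0.13, 0.12 and 0.14 in this order, against -0.01 over all tested genes.

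The wider HIF system was read the same way at 8 against 1 kPa. Of 13 genes that build or degrade HIF 2 rose and 1 fell, beside the same 8.17% and 5.6% of all tested genes. The rises were those of ELOB and ELOC, the elongin subunits that VHL binds, at 0.49 ± 0.0699 and 0.35 ± 0.0778 (edgeR, adjusted p = 0.00521 and 0.0145). The fall was that of the prolyl hydroxylase EGLN2, by 0.67 (SE 0.162, adjusted p = 0.0190), whose exons are shared with a read-through gene and whose counts are therefore uncertain. Of 29 further HIF targets 27 were measured, 0 rose and 1 fell, with a median of -0.12. That gene was WSB1, part of a ubiquitin ligase, which fell by 0.50 (SE 0.0983, adjusted p = 0.00968). In these 6 lists edgeR called 0 genes at 30 against 8 kPa and 0 at 30 against 1 kPa. At 30 against 8 kPa 17 of the 89 measured genes had an unadjusted p under 0.05, as did 17.9% of all tested genes, and DESeq2 called 2. At 30 against 1 kPa these numbers were 20 of the 89, 18.9% and 4.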

How the data were processed

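Raw counts per gene were deposited by the authors as a table of 12 libraries; the aligner was HISAT2 and the build GRCh38, per the submitters' processing notes. The counting tool, annotation release, strand setting and filters are not given in the sources used here. Of 60664 identifiers 60463 were matched to gene names. Positions, exon lengths and overlaps came from GENCODE 29 (58396 identifiers present), so per-kilobase levels are approximate.

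In R 4.3.3, edgeR 4.0.16 was used with filterByExpr (minimum count 10; 17960 genes kept), TMM scaling, a fit of all 12 libraries with stiffness as the only term, the quasi-likelihood F-test and Benjamini-Hochberg adjustment at 0.05. The SE is the log2 fold change divided by the root of F. The biological coefficient of variation was 0.0966. Precision is lowest for genes under about 100 counts per library.

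The 36 genes and all lists were chosen with earlier results of these data known. Every gene past the threshold is given by library, and up to 3 genes with the smallest p were named from each other list. DESeq2 1.42.0, limma-voom 3.58.1, other scalings and filters, a replicate block, a depth term and leaving out each library were tried as alternatives. Steps were tested on simulated data. No sample was left out. Values of some single marker genes are not reported here.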

Additional observations from a re-analysis of the deposited data

Results flagged for a closer look

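In 8 of the 108 groups of 4 libraries formed by the 36 genes and 3 stiffnesses, a single library stood far from the other 3, past Dixon's critical value for the gap divided by the range. Chance gives this in about 1 in 20 groups. Replicate 4 at 8 kPa stood apart for 3 genes. Its PFKP level was 138 CPM against 97.0 to 98.3 in the other 8 kPa libraries, its PDK3 level was 14.6 CPM against 18.6 to 19.2, and its BNIP3L level was 103 CPM against 142 to 144.

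Replicate 2 stood apart 3 times on the high side. VEGFA was at 583 CPM against 352 to 391 at 1 kPa and at 417 CPM against 318 to 328 at 30 kPa, and HIF1A was at 536 CPM against 406 to 415 at 30 kPa. The remaining libraries were 1 kPa replicate 4 for PFKFB3, at 25.6 CPM against 22.6 to 22.9, and 30 kPa replicate 1 for ANKRD37, at 2.04 CPM against 2.55 to 2.58.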

How the results depend on the processing

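The 4 counts of all genes and the 4 counts of the 36 genes were recomputed under each alternative. At 8 against 1 kPa 2472 genes and 9 of the 36 were called. These became 1068 and 5 with only the 2 groups compared and 0 and 0 with depth class in the fit, and ranged from 534 to 3563 and from 2 to 11 when 1 library was left out. At 30 against 8 kPa 0 and 0 were called, which became 330 and 1 with no filter, 414 and 2 with DESeq2 and 61 and 0 with only the 2 groups compared, and ranged from 0 to 1026 and from 0 to 3 when 1 library was left out. With only libraries over 2e+07 counts, an alternative chosen after seeing the data, 2 genes and 0 of the 36 were called. At 30 against 1 kPa 437 and 1 were called, which became 263 and 1 with library size alone, 875 and 2 with no filter, 1068 and 4 with DESeq2, 351 and 0 with only the 2 groups compared and 0 and 0 with depth class in the fit, and ranged from 50 to 676 and from 0 to 1. For 8 kPa against the mean of 1 and 30 kPa 1272 and 7 were called, which became 2263 and 9 with DESeq2 and ranged from 0 to 2870 and from 0 to 9. With the replicate number as a block, counts in the 4 comparisons were 3273 and 12, 40 and 0, 974 and 3, and 2096 and 10. Among the 36 genes the block added calls of HK1, SLC2A3 and VEGFA at 8 against 1 kPa (adjusted p = 0.0433, 0.0332 and 0.00312), of SLC2A1 and VEGFA at 30 against 1 kPa (0.0476 and 0.0255), and of GPI, LDHA and VEGFA for 8 kPa against the mean (0.0483, 0.0285 and 0.0151), and it ended none. The labels name no batch shared by a replicate number. In deviations from the group means, same-numbered libraries correlated at -0.203 to 0.530, with 11 of 12 pairs positive and 8 over 0.1, against 12 and 8 of 36 pairs with different numbers. In 15 of 24 cases a library correlated best with its own number in another group, a hint of shared numbers from the data and not from the design. Since not every pair was over 0.1, the libraries were treated as unpaired. For the 17 calls of single genes, 111 of 350 alternative values fell below the threshold and 0 reversed. For the 127 values of single genes that did not pass, 37 alternative values passed and 103 changed sign below the threshold. The cause of these shifts was not tested, beyond the smaller number of libraries where some were left out. With depth class in the fit, the effect of depth is taken from 8 kPa replicate 1 against the other 8 kPa libraries. Depth limits CA9, ALDOA, LDHB, ANKRD37, ALDOC and EGLN3 most.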
